A study of Mus musculus with 9 samples.

Results

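The genes described here are the TAM receptor kinases Axl, Mertk and Tyro3, their ligands Gas6 and Pros1, the bridging gene Mfge8 and the engulfment genes Elmo1 and Dock2. They were taken by name from a table of 54532 mouse genes, and all 8 were found. Messenger RNA had been sequenced from RAW264.7 cells, a mouse macrophage line that came from ascites and is labelled wild type, in 9 libraries that form 3 groups of 3. The LPS + H-CDs cells received H-CDs and lipopolysaccharide (LPS), a bacterial cell wall component sensed by Toll-like receptor 4. Its dose was 1 µg/ml, and that of H-CDs was 400 µg/ml. The LPS cells received the same lipopolysaccharide without H-CDs, and the control cells were untreated; the exposure was 6 h. The labels do not spell out H-CDs, and the title of the series names a nanozyme from fruit with superoxide dismutase activity. None of the 9 libraries came from cells given H-CDs without LPS. An effect of H-CDs alone therefore cannot be told apart from one on the LPS response. All groups are 1 cell line, and no label states that replicates were grown as separate cultures, so the p-values measure only how far these libraries spread, which may be technical.

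TAM receptors are receptor tyrosine kinases with which phagocytes take up dying cells. They do not touch the dying cell directly: Gas6 or protein S, the product of Pros1, binds phosphatidylserine on its surface and bridges it to the receptor. Protein S activates Tyro3 and Mertk, and Axl is activated by Gas6. MFG-E8, the product of Mfge8, is another bridging protein and links phosphatidylserine to alpha-v integrins. Inside the phagocyte, Elmo1 binds exchange factors of the Dock family, and the complex switches on Rac, which drives actin around the prey. In macrophages and dendritic cells TAM signalling also dampens Toll-like receptor and cytokine responses.

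In the deposited annotation (GRCm38), Axl lies on chromosome 7 at 25757273 to 25788705 (minus strand), Mertk on chromosome 2 at 128698956 to 128802894 and Tyro3 on chromosome 2 at 119797733 to 119818104. Gas6 lies on chromosome 8 at 13465374 to 13494490, Pros1 on chromosome 16 at 62854307 to 62929346 and Mfge8 on chromosome 7 at 79133768 to 79149060. Elmo1 lies on chromosome 13 at 20090596 to 20608353 and Dock2 on chromosome 11 at 34226815 to 34783892.

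Axl, Pros1 and Mfge8, the receptor, ligand and bridging genes whose levels were high enough to be tested, are shown by the sequence upstream of their start sites. The sequences are the 250 bases before the RefSeq start in GRCm38.p6, 5′ to 3′ on the strand of the gene, with matches to the GC box (GGGCGG on either strand) in capitals. The Axl window is chr7:25788734-25788983 on the minus strand, the Pros1 window is chr16:62854057-62854306 on the plus strand and the Mfge8 window is chr7:79149061-79149310 on the minus strand.
Axl: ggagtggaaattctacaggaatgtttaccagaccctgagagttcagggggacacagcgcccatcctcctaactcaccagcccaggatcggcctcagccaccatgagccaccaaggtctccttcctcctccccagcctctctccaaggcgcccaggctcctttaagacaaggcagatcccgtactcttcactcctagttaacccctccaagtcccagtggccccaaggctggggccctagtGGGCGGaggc
Pros1: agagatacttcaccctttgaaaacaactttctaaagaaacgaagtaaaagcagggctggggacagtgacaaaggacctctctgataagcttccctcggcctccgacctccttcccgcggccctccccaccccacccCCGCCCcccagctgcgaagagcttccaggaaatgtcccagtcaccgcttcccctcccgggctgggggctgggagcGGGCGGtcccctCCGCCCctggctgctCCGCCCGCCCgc
Mfge8: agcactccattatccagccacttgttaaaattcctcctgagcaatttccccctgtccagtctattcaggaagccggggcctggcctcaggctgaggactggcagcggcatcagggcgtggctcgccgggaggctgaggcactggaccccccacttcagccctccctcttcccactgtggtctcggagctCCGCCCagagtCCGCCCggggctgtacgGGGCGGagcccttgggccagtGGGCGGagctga
Axl had 1 GC box, at positions -10 to -5 from the start. Pros1 had 5, of which those at -12 to -7 and -8 to -3 overlap, and Mfge8 had 4. Of 27025 RefSeq promoter windows of this length, 32.9% held at least 1. Both strands were also searched for an AP-1 site (TGANTCA, in 6.87% of all windows), an interferon response element (3.04%), an antioxidant response element (TGACNNNGC, 10.1%), the NF-kB consensus (3.75%) and a TATA box (TATAAA, 13.0%). None of these matched in the 3 windows shown, which says only that these letters do not occur there.

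The libraries held 14377161 to 16069968 reads. Levels are in FPKM, fragments scaled by the authors to gene length and to a factor of each library. That factor is not the total of the reads: it was 0.983 to 0.993 times the total in LPS + H-CDs libraries, 0.928 to 0.935 times in LPS libraries and 1.13 to 1.15 times in control libraries. Of 10 macrophage markers, 8 had a mean of at least 1 FPKM in LPS + H-CDs cells, 8 in LPS cells and 9 in control cells, and Marco had no read in any library. Their summed level was 1041 to 1195 FPKM in LPS + H-CDs libraries, 1581 to 1750 FPKM in LPS libraries and 2439 to 2739 FPKM in control libraries, and the part of this difference in the results was not tested. No marker of fibroblasts, epithelium, endothelium, T cells, B cells, neutrophils or dendritic cells, with 5 listed for each, reached a mean of 1 FPKM in any group. In LPS + H-CDs replicate 1, mitochondrial messenger RNAs took 0.490% of reads, against 1.62% and 1.64% in the other replicates of its group, 1.45 to 1.64% in LPS libraries and 1.49 to 1.99% in control libraries. For the tested members and for the pathway lists, values without that library are given beside the results on H-CDs.

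Axl was lower and Mfge8 was higher in LPS + H-CDs cells than in LPS cells, and both differences ran against those between LPS and control. Pros1 was lower than control in both groups with LPS, and Dock2 was lower in LPS + H-CDs cells than in either other group. Tyro3 was low and Mertk and Gas6 were at or near 0 in every group. Levels were tested with limma on log2(FPKM + 1), a scale that understates the change of low genes, in 11707 genes with at least 1 FPKM in 3 or more libraries. A gene was called at a Benjamini-Hochberg adjusted p under 0.05 over all of them.

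Axl, Pros1, Mfge8, Elmo1 and Dock2 passed the filter on low values, and Mertk, Tyro3 and Gas6 did not. Axl passed it through the 3 LPS libraries and 1 LPS + H-CDs library, so the counts that follow describe these genes and support nothing further. For LPS + H-CDs against LPS, 3 of the 5 were called, where 15.6% of all tested genes were. Of these, 1 was higher (background 6.54%) and 2 were lower (9.05%). The libraries of those groups did not overlap for 3 of the 5, where 36.8% of all tested genes did not. For LPS against control, 4 of the 5 were called (background 55.6%), 2 higher (28.8%) and 2 lower (26.8%), and 4 did not overlap (63.9%). For LPS + H-CDs against control, 3 of the 5 were called (background 52.0%), 1 higher (26.7%) and 2 lower (25.4%), and 3 did not overlap (57.7%).

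The balance of directions depended on how libraries were scaled. In LPS against control 3372 genes were higher and 3136 lower on the authors' scale, whereas 1678 were higher and 5663 lower after rescaling to TPM, which gives every library the same sum. Over the tested genes the log2 fold change had a median of 0.03 on the authors' scale and of -0.27 after rescaling to TPM. For LPS + H-CDs against control, 3120 genes were higher and 2970 lower on the authors' scale and 1647 higher and 5366 lower after rescaling, with medians of 0.01 and -0.25. For LPS + H-CDs against LPS, 766 genes were higher and 1060 lower on the authors' scale. There the balance reversed, with more genes higher than lower, after rescaling to the total of the reads. The median was -0.01 on the authors' scale, 0.02 on TPM and 0.06 on the total of the reads. Each pair of comparisons shares the libraries of 1 group, so their values stand side by side and do not support each other. An exact permutation test of a single gene reaches no lower p than 0.1 with this number of libraries.

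Axl, the receptor that Gas6 activates, had 1.04, 0.668 and 0.961 FPKM in the LPS + H-CDs libraries, against 5.11, 5.93 and 5.87 FPKM in the LPS libraries and 0.166, 0.198 and 0.192 FPKM in the control libraries. No groups overlapped: the LPS libraries were highest, the control libraries lowest, and the LPS + H-CDs libraries lay between them. Axl averaged 0.891 ± 0.198 FPKM in LPS + H-CDs cells, 5.63 ± 0.458 FPKM in LPS cells and 0.186 ± 0.0169 FPKM in control cells (SD, n = 3 each, as for all means below). The mean in LPS + H-CDs cells was 6.32-fold lower than in LPS cells and 4.80-fold higher than in control cells, and the mean in LPS cells was 30.3-fold higher than in control cells. These means rest on 201, 1192 and 49 reads in the LPS + H-CDs, LPS and control libraries together. In bulk RNA, fewer cells that express a gene and less of its RNA per cell cannot be told apart.

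Axl passed the filter on low values mainly through the LPS libraries, where it is highest, so its p-values describe it and support nothing further. On the log2(FPKM + 1) scale Axl fell by 1.81 ± 0.11 (SE) in LPS + H-CDs against LPS (limma adjusted p = 1.19e-05). It rose by 2.48 ± 0.11 in LPS against control (limma adjusted p = 7.23e-08) and by 0.67 ± 0.11 in LPS + H-CDs against control (limma adjusted p = 6.11e-04). On the recovered reads edgeR gave log2 fold changes of -2.63, 4.87 and 2.24 for these comparisons in the same order. The authors' deposited table, which compares LPS + H-CDs with LPS, gives Axl a log2 fold change of -2.65 and an adjusted p of 6.82e-45. Without LPS + H-CDs replicate 1 the log2 fold change was -1.87 against LPS and 0.61 against control in limma, and all 17 alternatives kept the direction and the call in each comparison.

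**Figure D1:**
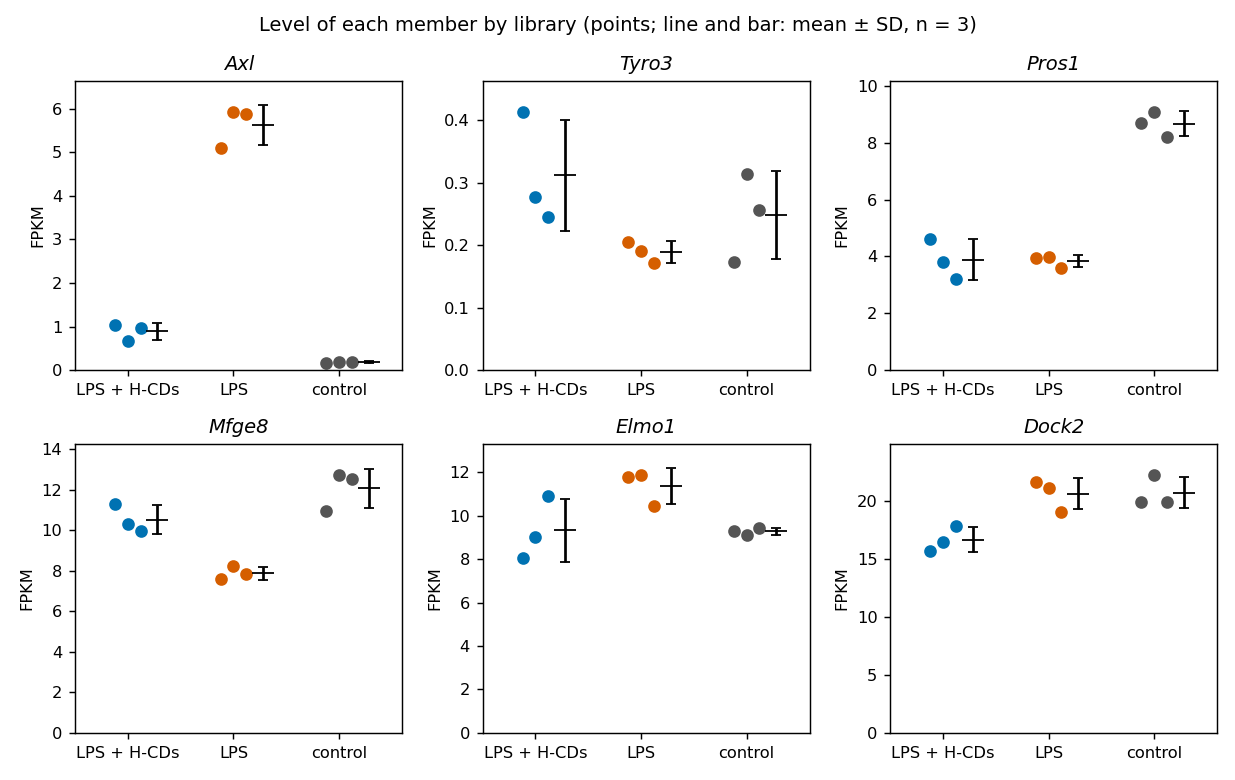
FPKM of 6 genes in each of the 9 libraries (points, replicates 1 to 3 from left to right) with the mean and SD of each group of 3 beside them; every vertical axis starts at 0 and has its own range. Axl stood at 5.11 to 5.93 FPKM in LPS libraries and below in all others, and Pros1 was lower in the 6 libraries with LPS than in the control libraries.

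Tyro3, a TAM receptor that protein S and Gas6 activate, was present at few reads. It had 0.413, 0.276 and 0.245 FPKM in the LPS + H-CDs libraries, against 0.205, 0.190 and 0.172 FPKM in the LPS libraries and 0.174, 0.313 and 0.257 FPKM in the control libraries, which is 22 to 38, 16 to 17 and 18 to 35 reads in a library. The LPS + H-CDs libraries lay above the LPS libraries without overlap, and the control libraries overlapped both groups. Under the filter on low values Tyro3 had no test, and in edgeR on all genes with a read, an alternative added after seeing the data, its log2 fold change in LPS + H-CDs against LPS was 0.75 and was not called (adjusted p = 0.209). LPS against control gave -0.44 there (edgeR adjusted p = 0.423).

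Mertk, the TAM receptor best known for uptake by resident macrophages, had 1 read in LPS + H-CDs replicate 2 and none in the other 8 libraries. A count of 0 allows up to 3 reads, which is 0.0384 to 0.0518 FPKM of Mertk in these libraries. In a library without a read, a level below that is therefore not excluded. Such limits cover counting error only. The overlapping annotated genes Gm14011 and Gm23172 also had no read.

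Axl made up most of the summed TAM receptor level in cells given LPS. The sum was 1.46, 0.958 and 1.21 FPKM in LPS + H-CDs libraries, 5.31, 6.12 and 6.04 FPKM in LPS libraries and 0.340, 0.512 and 0.449 FPKM in control libraries, with no overlap. Axl accounted for 73.7 ± 5.30% of it in LPS + H-CDs cells, 96.7 ± 0.533% in LPS cells and 43.5 ± 5.11% in control cells. FPKM is per gene length, so these shares compare the receptors with each other within a library; they were not tested.

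**Figure D2:**
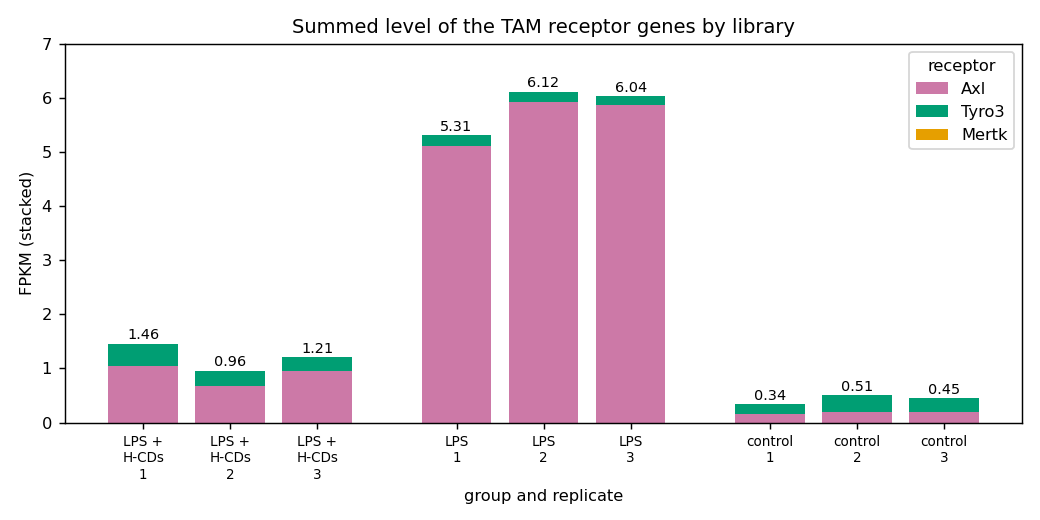
FPKM of Axl, Tyro3 and Mertk stacked for each library, with the sum printed above each bar. The sums are 5.31 to 6.12 FPKM in LPS libraries, nearly all of it Axl, and Mertk, with 1 read in all, is too low to see.

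Of the TAM ligands, Pros1 was expressed and Gas6 was close to 0. Gas6, the ligand that activates Axl, had 4 reads in LPS + H-CDs replicate 1, the library with few mitochondrial reads, and none in the other 8, where 3 reads correspond to 0.0653 to 0.0882 FPKM. Pros1, which encodes the anticoagulant and TAM ligand protein S, had 4.63, 3.82 and 3.21 FPKM in the LPS + H-CDs libraries, against 3.96, 3.98 and 3.58 FPKM in the LPS libraries and 8.71, 9.08 and 8.21 FPKM in the control libraries. All 6 libraries with LPS lay below the control libraries, and the LPS libraries lay inside the range of the LPS + H-CDs libraries. Pros1 was 2.26-fold lower in LPS than in control (log2 fold change -0.998 ± 0.10, SE; limma adjusted p = 2.97e-05). It was 2.23-fold lower in LPS + H-CDs than in control (-0.99 ± 0.10; limma adjusted p = 3.53e-05). Both calls held in all 17 alternatives. LPS + H-CDs against LPS gave 0.00 ± 0.10 with a 95% interval of -0.23 to 0.24 (limma adjusted p = 0.984). Without LPS + H-CDs replicate 1, the highest of its group, the value was -0.10 against LPS and was not called, and -1.10 against control.

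Mfge8, which encodes the bridge to alpha-v integrins, had 11.3, 10.3 and 9.95 FPKM in the LPS + H-CDs libraries, against 7.58, 8.24 and 7.82 FPKM in the LPS libraries and 10.96, 12.8 and 12.5 FPKM in the control libraries. The LPS libraries were lowest, with no overlap with either other group, and the LPS + H-CDs and control libraries overlapped. Mfge8 averaged 10.5 ± 0.710 FPKM in LPS + H-CDs cells, 7.88 ± 0.331 FPKM in LPS cells and 12.1 ± 0.98 FPKM in control cells. It was 1.34-fold higher in LPS + H-CDs than in LPS (log2 fold change 0.38 ± 0.07, SE; limma adjusted p = 0.00989) and 1.53-fold lower in LPS than in control (-0.56 ± 0.07; limma adjusted p = 1.82e-04). Both calls held in all 17 alternatives, and without LPS + H-CDs replicate 1 the first was 0.33. In the authors' deposited table Mfge8 has a log2 fold change of 0.43 against LPS. LPS + H-CDs against control gave -0.18 ± 0.07 with a 95% interval of -0.35 to -0.01 and was not called (limma adjusted p = 0.0690). That comparison was called, with Mfge8 lower, without LPS + H-CDs replicate 1 (-0.23), without control replicate 1 (-0.24) and after rescaling to TPM (-0.47) or total reads (-0.37; adjusted p 3.35e-04 to 0.194 over all alternatives).

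Dock2, the Rac exchange factor of blood cells, was modestly lower with H-CDs. It had 15.7, 16.4 and 17.8 FPKM in the LPS + H-CDs libraries, against 21.7, 21.2 and 19.1 FPKM in the LPS libraries and 19.9, 22.3 and 19.9 FPKM in the control libraries. The LPS + H-CDs libraries lay below all others, and the LPS and control libraries overlapped. Dock2 was 1.24-fold lower in LPS + H-CDs than in LPS (log2 fold change -0.29 ± 0.08, SE; limma adjusted p = 0.0291) and 1.24-fold lower than in control (-0.30 ± 0.08; limma adjusted p = 0.00845). The call against control held in all 17 alternatives, with a value of -0.26 without LPS + H-CDs replicate 1. The call against LPS ended without LPS + H-CDs replicate 1 (limma adjusted p = 0.0742) or 2 (0.0865), without LPS replicate 1 (0.106) or 2 (0.105), and under 4 other settings, with the same sign throughout (adjusted p 0.00421 to 0.106 over all alternatives). LPS against control gave 0.00 ± 0.08 with a 95% interval of -0.17 to 0.16. It was called lower after rescaling to TPM (-0.34) or to total reads (-0.28).

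Elmo1, the partner of Dock proteins, had 8.06, 9.01 and 10.9 FPKM in the LPS + H-CDs libraries, against 11.8, 11.9 and 10.4 FPKM in the LPS libraries and 9.28, 9.11 and 9.44 FPKM in the control libraries. The LPS libraries lay above the control libraries, and the LPS + H-CDs libraries, which spread most, overlapped both. Elmo1 was 1.22-fold higher in LPS than in control (log2 fold change 0.26 ± 0.10, SE; limma adjusted p = 0.0432). This call ended under 10 of 17 alternatives, including without LPS replicate 1 or 2 or any 1 control library (adjusted p 0.0114 to 0.993 over all alternatives), and the log2 fold change was -0.05 after rescaling to TPM. LPS + H-CDs against LPS gave -0.27 ± 0.10 with a 95% interval of -0.49 to -0.05 and was not called (limma adjusted p = 0.0977). It was called lower in 3 of 17 alternatives: without LPS + H-CDs replicate 3 (-0.37; limma adjusted p = 0.0182), by DESeq2 (-0.28; adjusted p = 0.0447) and by edgeR on all genes with a read (-0.26; adjusted p = 0.0458). The adjusted p ran from 0.0182 to 0.25 over all alternatives, and the value was -0.18 without LPS + H-CDs replicate 1. LPS + H-CDs against control gave 0.00 ± 0.10 with a 95% interval of -0.22 to 0.22, and 0.09 without that library. It was called lower after rescaling to TPM (-0.28; limma adjusted p = 0.0474, with 0.0474 to 1.00 over all alternatives). Genes annotated inside Elmo1 or Dock2 reached at most 0.332 FPKM; whether counting used strand is not stated.

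**Figure D3:**
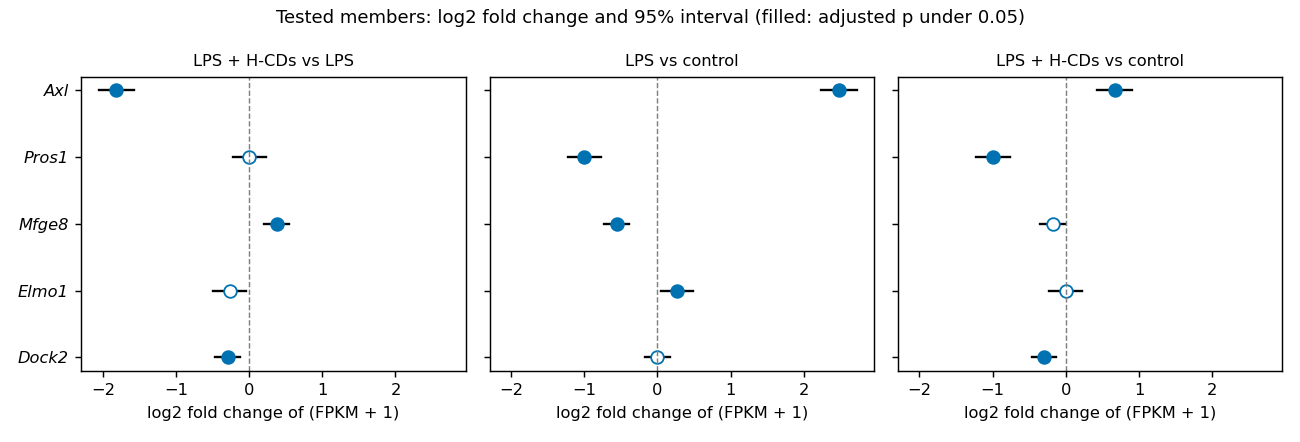
Log2 fold change of FPKM + 1 (horizontal axis, the same in all panels) with its 95% interval for the 5 tested genes in 3 comparisons; filled points had an adjusted p under 0.05. Axl stands at -1.81 for LPS + H-CDs over LPS and at 2.48 for LPS over control, far outside the other genes in both.

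**Figure D4:**
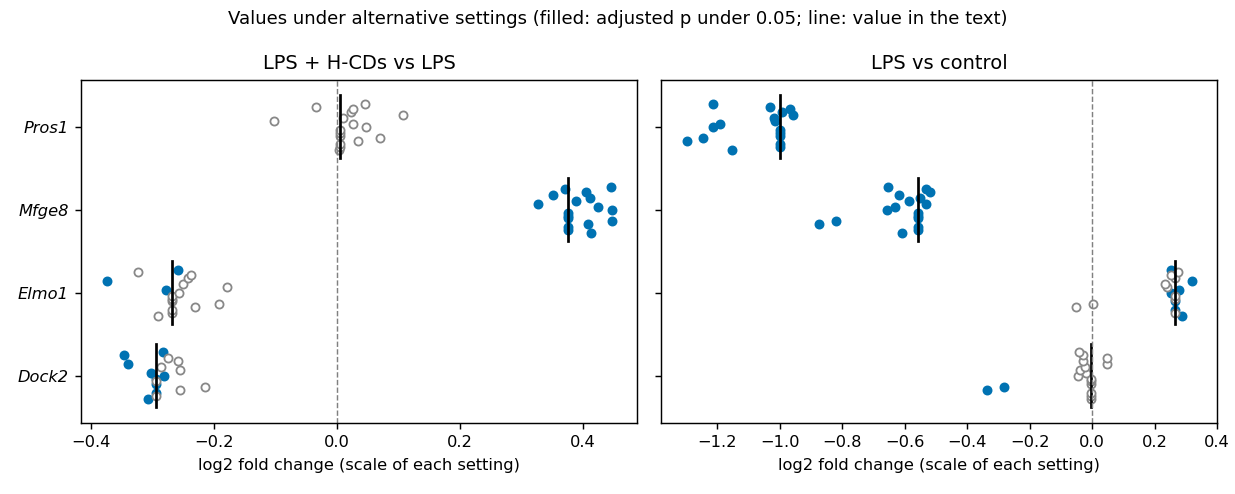
Log2 fold change of 4 genes under each alternative setting (points, filled where the adjusted p was under 0.05, each on the scale of its own test) and as given in the text (line). Mfge8 is filled throughout in both panels, and Elmo1 and Dock2 are filled under some settings only.

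The genes whose profile over the 9 libraries was nearest to that of Axl were Siglec1, a sialic acid-binding macrophage receptor, Fpr2, a receptor for formyl peptides and annexin A1, and the chemokine gene Ccl17. Nearness was the root mean square difference between log2(FPKM + 1) profiles, each centred on its own mean, over tested protein-coding genes. It was 0.161, 0.210 and 0.285 in this order, and the Axl profile departed from its own mean by 1.05. Siglec1 averaged 2.33 ± 0.361 FPKM in LPS + H-CDs cells, 12.4 ± 0.450 FPKM in LPS cells and 0.905 ± 0.0290 FPKM in control cells. Ccl17 averaged 0.870 ± 0.233 FPKM in LPS + H-CDs cells, 5.70 ± 0.457 FPKM in LPS cells and 0.627 ± 0.520 FPKM in control cells. The nearest to Pros1 were Lrrc45, Sbk1 and Pex10 (0.0692, 0.0738 and 0.0750), and to Mfge8 Marc2, Aph1b and Bbs9 (0.0421, 0.0531 and 0.0533). The nearest to Dock2 were Zfp865, Specc1 and Jak3 (0.0513, 0.0515 and 0.0565), and Gpatch8 and Stat6 were among the 3 nearest to Elmo1 (0.0647 and 0.0649).

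The wider pathway was read from 135 other genes in 10 lists, of which 102 were tested. For LPS + H-CDs against LPS, 9 were called higher, or 8.82% (background 6.54%), and 23 lower, or 22.5% (9.05%), with a median log2 fold change of -0.11, against -0.01 over all tested genes. Without LPS + H-CDs replicate 1, 7 were higher and 20 lower. For LPS against control 44 were higher, or 43.1% (background 28.8%), and 35 lower, or 34.3% (26.8%), with a median of 0.09, against 0.03. For LPS + H-CDs against control 34 were higher, or 33.3% (background 26.7%), and 37 lower, or 36.3% (25.4%), with a median of -0.01, against 0.01. After rescaling to TPM, 26 were higher and 49 lower in LPS against control, and 24 were higher and 55 lower in LPS + H-CDs against control. For LPS + H-CDs against LPS, 10 were higher and 18 lower after rescaling to TPM, and 13 higher and 17 lower on total reads. Fpr2 and Src reached 1 FPKM in the 3 LPS libraries only and so had to differ: they are included in the counts, and their values are given with no test. Socs1 reached 1 FPKM in 5 libraries, all with LPS, and Vkorc1 in 3 libraries, none of them with H-CDs. The counts of the lists with these genes therefore include genes that passed the filter in some groups only.

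Among other receptors for phosphatidylserine and lipids on dying cells, 4 of 6 tested genes rose in LPS + H-CDs against LPS and none fell (median log2 fold change 0.47). At an unadjusted p under 0.05 limma had 4 higher and 1 lower, edgeR and DESeq2 each called 4 higher and none lower, and the count was 4 without LPS + H-CDs replicate 1. Cd300lf (-0.23) and Cd300ld (-0.07) were lower in LPS + H-CDs than in LPS and were not called. In LPS against control 2 of the 6 rose (33.3%, background 28.8%) and 4 fell (66.7%, background 26.8%), and after rescaling to TPM 1 rose and 4 fell. The 2 that rose were Cd300lf and Cd300ld (0.47 each). Cd300a, an inhibitory receptor that binds phosphatidylserine, averaged 9.0 ± 0.283 FPKM in LPS + H-CDs cells, 4.03 ± 0.463 FPKM in LPS cells and 6.75 ± 0.357 FPKM in control cells (log2 fold change over LPS 0.99 ± 0.08, SE; limma adjusted p = 6.53e-05). Havcr2, which encodes the phosphatidylserine receptor TIM-3, averaged 1.68 ± 0.147 FPKM in LPS + H-CDs cells, 0.665 ± 0.262 FPKM in LPS cells and 4.67 ± 0.320 FPKM in control cells (0.70 ± 0.12; limma adjusted p = 0.00533). Trem2, a receptor for lipids on dying cells, averaged 6.98 ± 0.393 FPKM in LPS + H-CDs cells, 4.38 ± 0.754 FPKM in LPS cells and 27.0 ± 2.22 FPKM in control cells (0.58 ± 0.10; limma adjusted p = 0.00632). Cd300lb averaged 34.9 ± 5.35 FPKM in LPS + H-CDs cells, 26.6 ± 0.460 FPKM in LPS cells and 46.4 ± 0.913 FPKM in control cells (0.37 ± 0.10; limma adjusted p = 0.0346).

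**Figure D5:**
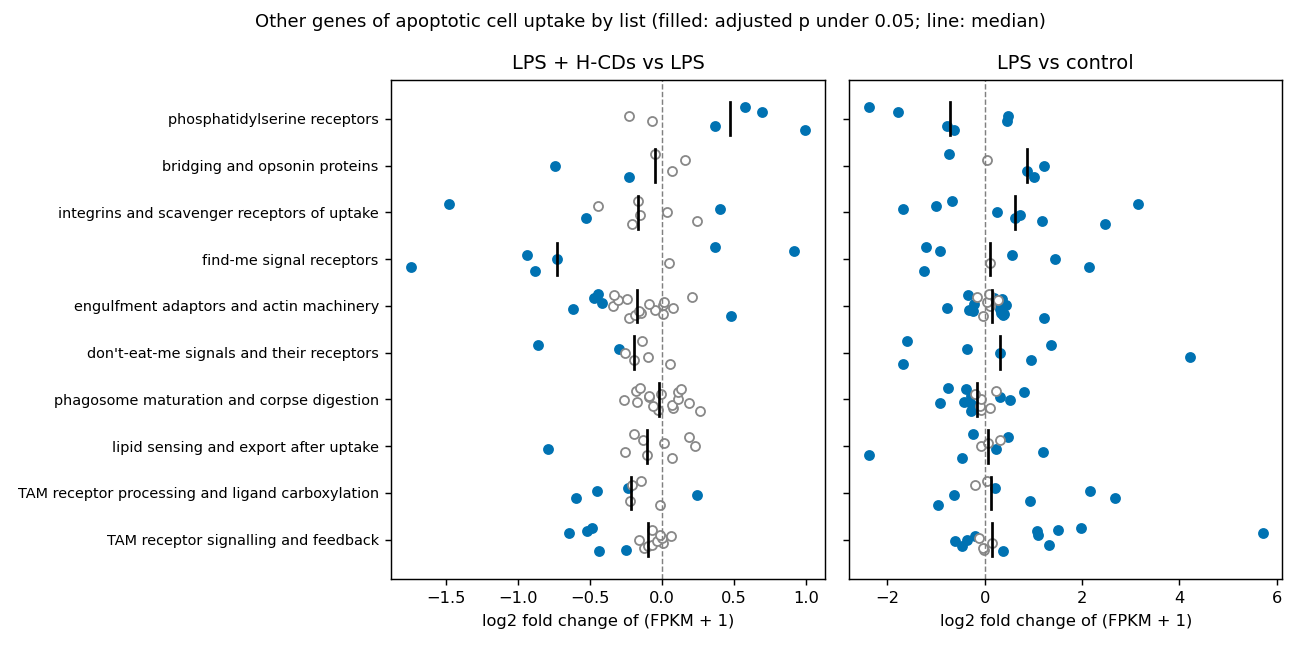
Log2 fold change of FPKM + 1 of 102 tested genes in 10 lists, for LPS + H-CDs over LPS on the left and LPS over control on the right, with horizontal axes of different range; filled points had an adjusted p under 0.05 and black lines are list medians. The median of the phosphatidylserine receptors is 0.47 on the left and -0.70 on the right.

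Receptors and channels for signals that draw phagocytes to dying cells moved both ways. Of 7 tested, 2 rose and 4 fell in LPS + H-CDs against LPS (median -0.73), also without LPS + H-CDs replicate 1, and 3 rose and 3 fell in LPS against control. Fpr2, 1 of the 4, averaged 0.323 ± 0.149 FPKM in LPS + H-CDs cells and 3.4 ± 0.303 FPKM in LPS cells and had no read in control cells. P2ry2, a receptor for nucleotides, averaged 4.49 ± 0.631 FPKM in LPS + H-CDs cells, 8.07 ± 0.343 FPKM in LPS cells and 2.34 ± 0.166 FPKM in control cells (log2 fold change over LPS -0.73 ± 0.09, SE; limma adjusted p = 9.29e-04), and Cx3cr1 and P2ry6 were the other genes that fell (-0.88 and -0.94). Panx1, a channel that releases nucleotides, averaged 3.75 ± 0.125 FPKM in LPS + H-CDs cells, 1.51 ± 0.132 FPKM in LPS cells and 3.74 ± 0.168 FPKM in control cells (0.92 ± 0.07; limma adjusted p = 7.10e-05), and S1pr2, a receptor for sphingosine-1-phosphate, also rose (0.37).

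Of 9 integrin and scavenger receptor genes, 1 rose and 2 fell in LPS + H-CDs against LPS, also without LPS + H-CDs replicate 1, while edgeR called 3 lower and DESeq2 4. Relative to control, 6 rose and 3 fell in LPS. Msr1, a class A scavenger receptor, averaged 16.3 ± 2.07 FPKM in LPS + H-CDs cells, 46.9 ± 1.92 FPKM in LPS cells and 4.39 ± 0.128 FPKM in control cells (log2 fold change over LPS -1.47 ± 0.09, SE; limma adjusted p = 1.19e-05). Itgam, the alpha chain of complement receptor 3, also fell (-0.53). Itgb5, the beta chain of an integrin that binds MFG-E8, averaged 5.31 ± 0.145 FPKM in LPS + H-CDs cells, 3.81 ± 0.634 FPKM in LPS cells and 14.2 ± 0.419 FPKM in control cells (0.40 ± 0.09; limma adjusted p = 0.0195). Of 5 bridging and opsonin genes, complement C3 (-0.74) and annexin A1 (-0.23) fell with H-CDs against LPS and none rose in limma, where 1 was higher at an unadjusted p under 0.05, edgeR and DESeq2 called none higher and rescaling to total reads gave 1 higher. Annexin A1 was near the threshold (limma adjusted p = 0.0495), and 1 gene instead of 2 was lower without LPS + H-CDs replicate 1, in edgeR and after rescaling to TPM or total reads. In LPS against control 3 of these rose and 1 fell.

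Of 20 genes of engulfment adaptors and the actin machinery, 1 rose and 4 fell in LPS + H-CDs against LPS (median -0.17), and DESeq2 called 6 lower. Those that fell were Dock8 (-0.62), Vav1 (-0.47) and Rac2 (-0.41), which act in Rac and Cdc42 signalling, and Wasf2 (-0.44), which drives actin branching. The adaptor gene Bcar1 rose (0.48) and was not called without LPS + H-CDs replicate 1. In LPS against control 9 rose and 5 fell, and 1 rose and 8 fell after rescaling to TPM. Elmo2, a relative of Elmo1, averaged 6.04 ± 0.0302 FPKM in LPS + H-CDs cells, 5.68 ± 0.179 FPKM in LPS cells and 10.5 ± 0.381 FPKM in control cells (log2 fold change of LPS over control -0.79 ± 0.05, SE; limma adjusted p = 2.22e-06).

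Of 7 genes for don't-eat-me signals and their receptors, none rose and 2 fell in LPS + H-CDs against LPS in limma; none was higher at an unadjusted p under 0.05 or called higher by edgeR or DESeq2. The number lower was 2 without LPS + H-CDs replicate 1, 3 in DESeq2 and 1 after rescaling to TPM or total reads. Siglece, an inhibitory sialic acid receptor, averaged 6.84 ± 0.456 FPKM in LPS + H-CDs cells, 13.2 ± 0.630 FPKM in LPS cells and 4.58 ± 0.851 FPKM in control cells (log2 fold change over LPS -0.86 ± 0.10, SE; limma adjusted p = 7.18e-04), and Ptpn6, which encodes the phosphatase SHP-1, also fell (-0.30). In LPS against control 4 of the 7 rose (57.1%, background 28.8%) and 3 fell (42.9%, background 26.8%), and 3 rose and 3 fell after rescaling to TPM. Sirpa, the receptor for CD47, averaged 9.77 ± 0.196 FPKM in LPS + H-CDs cells, 10.9 ± 0.437 FPKM in LPS cells and 35.1 ± 0.571 FPKM in control cells, lower in LPS than in control (-1.61 ± 0.05; limma adjusted p = 1.13e-08). Cd47 was higher in LPS than in control (0.95 ± 0.07, limma adjusted p = 4.88e-06).

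None of 16 genes of phagosome maturation and corpse digestion was called in LPS + H-CDs against LPS in limma. At an unadjusted p under 0.05 limma had 1 higher and 1 lower, edgeR called 1 higher and DESeq2 none, and rescaling to TPM or total reads gave 1 higher; none was called without LPS + H-CDs replicate 1. In LPS against control 3 rose and 7 fell, and 1 rose and 12 fell after rescaling to TPM; Dnase2a, a lysosomal DNase, averaged 7.15 ± 0.573 FPKM in LPS + H-CDs cells, 6.14 ± 0.123 FPKM in LPS cells and 12.5 ± 1.34 FPKM in control cells. Of 9 genes for lipid sensing and export, none rose and Mylip (-0.79), a ligase that degrades lipoprotein receptors, fell in LPS + H-CDs against LPS in limma, where 2 were higher at an unadjusted p under 0.05, edgeR and DESeq2 called none higher and rescaling to total reads gave 2 higher. The number lower was 1 without LPS + H-CDs replicate 1 and 2 in DESeq2. In LPS against control 3 rose (33.3%, background 28.8%) and 3 fell (33.3%, background 26.8%), and 1 rose and 5 fell after rescaling to TPM. Abcg1, a cholesterol exporter, averaged 2.11 ± 0.355 FPKM in LPS + H-CDs cells, 2.33 ± 0.127 FPKM in LPS cells and 16.3 ± 0.389 FPKM in control cells, lower in LPS than in control (-2.38 ± 0.09; limma adjusted p = 2.22e-08).

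Of 8 genes that cleave TAM receptors or modify their ligands, 1 rose and 3 fell in LPS + H-CDs against LPS, and 4 rose and 2 fell in LPS against control. For the first comparison edgeR and DESeq2 each called 2 lower and none higher, and 3 were lower and none higher without LPS + H-CDs replicate 1. Rhbdf2, which carries the protease ADAM17 to the cell surface, averaged 51.9 ± 2.33 FPKM in LPS + H-CDs cells, 71.2 ± 1.88 FPKM in LPS cells and 15.1 ± 0.725 FPKM in control cells (log2 fold change over LPS -0.45 ± 0.06, SE; limma adjusted p = 0.00123). Furin, a proprotein convertase, averaged 41.3 ± 0.431 FPKM in LPS + H-CDs cells, 62.8 ± 3.11 FPKM in LPS cells and 8.95 ± 0.766 FPKM in control cells (-0.59 ± 0.07; limma adjusted p = 5.74e-04). Ggcx, the carboxylase that matures Gas6 and protein S, rose (0.24; limma adjusted p = 0.0464) and was not called without LPS + H-CDs replicate 1.

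Of 15 genes of TAM signalling and its feedback, none rose and 5 fell in LPS + H-CDs against LPS in limma, and 3 fell without LPS + H-CDs replicate 1; none was higher at an unadjusted p under 0.05 or called higher by edgeR or DESeq2. Socs3, a suppressor of cytokine signalling that TAM receptors induce, averaged 207 ± 17.8 FPKM in LPS + H-CDs cells, 325 ± 6.07 FPKM in LPS cells and 5.22 ± 0.370 FPKM in control cells (log2 fold change over LPS -0.65 ± 0.07, SE; limma adjusted p = 5.81e-04). Stat2, a transcription factor of interferon signalling, averaged 15.3 ± 1.59 FPKM in LPS + H-CDs cells, 21.8 ± 1.27 FPKM in LPS cells and 4.81 ± 0.151 FPKM in control cells (-0.49 ± 0.08; limma adjusted p = 0.00403), and Grb2 (-0.25) and Cbl (-0.43) also fell. Src, the other gene counted, averaged 0.530 ± 0.0980 FPKM in LPS + H-CDs cells, 1.19 ± 0.168 FPKM in LPS cells and 0.0439 ± 0.0328 FPKM in control cells. In LPS against control 7 rose and 4 fell, and 6 rose and 7 fell after rescaling to TPM.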

How the data were processed

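The authors deposited FPKM for 54532 genes in 9 libraries and a table of LPS + H-CDs against LPS for 21576 genes, with a scaled signal per library, a log2 fold change, a p-value and an adjusted p. The build was GRCm38 (mm10), per the submitters' processing notes; no source used here names the aligner, counter or test. Columns named CD were matched to samples titled H-CDs. FPKM times gene length, divided by its smallest value above 0 in the library (taken as 1 read), gave whole reads for 100.0% of values (tolerance 0.01), and the deposited signal gave the same reads.

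A limma 3.58.1 fit with intensity trend used log2(FPKM + 1) of all 9 libraries, 2-sided. Alternatives were edgeR 4.0.16 and DESeq2 1.42.0 on the reads, other filters, pseudocounts and scales, a replicate block and each library left out. The limma and edgeR fits were checked on simulated reads for LPS + H-CDs against LPS only. That check did not cover DESeq2, the other comparisons, differences in library scaling or changes as small as that of Dock2. From each list, up to 3 genes by smallest adjusted p for LPS + H-CDs against LPS and for LPS against control could be named. Cd300lb, Cd300ld, Cd300lf, Cx3cr1, P2ry6, Bcar1, Rac2, Cd47, Ggcx, Grb2 and Cbl were added after their values were seen. Some genes that the rule names are not reported here. Members, lists and tests were chosen with earlier results of these data known.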

Additional observations from a re-analysis of the deposited data

How the results depend on the processing

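Of 255 alternative values of single members, 220 kept their sign and side of the threshold, 17 lost a call, 10 gained one and 8 changed sign; of 459 alternative counts, 417 stayed within 1.5 times. Members lower in LPS + H-CDs than in LPS numbered 1 instead of 2 with no filter, rescaled to TPM, rescaled to total reads and with the replicate block, and 1 to 3 with 1 library left out. Members higher in LPS than in control numbered 1 instead of 2 under the same settings and with no trend in the prior variance, and 1 to 2 with 1 library left out. Rescaled to TPM, 5 members instead of 3 were called for LPS + H-CDs against control, 4 of them lower. Other pathway genes higher in LPS + H-CDs than in LPS numbered 4 instead of 9 at 5 FPKM or more, a filter that tests fewer genes, and those higher in LPS than in control 26 (TPM) or 27 (total reads) instead of 44. The cause of the other changes was not tested.

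Over all genes, LPS + H-CDs against LPS gave 1826 calls, 766 higher and 1060 lower. With 1 library left out these were 1022 to 1653, 446 to 669 and 576 to 984, lowest without LPS replicate 2. On total reads 1195 were higher and 690 lower, and edgeR on all genes with a read had 1192 higher. LPS against control gave 1678 higher and 5663 lower on TPM, and 1904 and 5191 on total reads. LPS + H-CDs against control gave 1647 and 5366 on TPM, and 2033 and 4528 on total reads. Log2 fold changes that changed sign, none of them called with the changed sign, ranged with 1 library left out from -0.103 to 0.106 for Pros1 in LPS + H-CDs against LPS, from -0.0392 to 0.0478 for Dock2 in LPS against control and from -0.11 to 0.0861 for Elmo1 in LPS + H-CDs against control; Elmo1 in LPS against control was -0.0527 on TPM.

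The deviations of same-numbered libraries from their group means had correlations of -0.12 to 0.20 across genes. Such correlations cannot tell whether a number marks a shared culture or batch, and no label states one. With the replicate block, the calls of Dock2 in LPS + H-CDs against LPS (limma adjusted p = 0.0582) and of Elmo1 in LPS against control (0.0710) ended, and no other member's call changed. Depth limits Tyro3, Mertk and Gas6, with at most 38 reads in a library.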

Other observations

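The levels of the expressed bridging genes stood in different ratios in the groups. The ratio of Mfge8 to Pros1 FPKM was 2.45, 2.70 and 3.10 in LPS + H-CDs libraries, 1.92, 2.07 and 2.19 in LPS libraries and 1.26, 1.40 and 1.53 in control libraries, with no overlap. The ratio of Pros1 to Axl FPKM was 4.44, 5.71 and 3.34 in LPS + H-CDs libraries, 0.775, 0.672 and 0.610 in LPS libraries and 52.3, 45.8 and 42.7 in control libraries. The ratio of Dock2 to Elmo1 FPKM was 1.80 ± 0.157 in LPS + H-CDs cells, 1.82 ± 0.0313 in LPS cells and 2.23 ± 0.182 in control cells (SD, n = 3 each). These ratios are computed within a library and were not tested.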
